A study of Mus musculus with 3 samples.

Results

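In the callus that bridges a healing mouse femur, a small set of mesenchymal cells carried the transcripts of *R3hdml*, *Prss46*, *Gm41724*, *Folr2*, *Fgf1* and *Tnfrsf11b* together. The cells were chosen by measured values, as those with UMIs (unique molecular identifiers, 1 for each captured transcript) of at least 3 of these 6 genes. They numbered 1020 of the 16714 cells without *Ptprc* (6.10%), with 36 of 447 at day 7, 444 of 6587 at day 10 and 540 of 9680 at day 14 after fracture. They are called Prss46/R3hdml cells here, although a cell need not carry either of these genes. The study sampled untreated C57BL/6 mice with a femoral fracture, and each day is 1 library of live cells sorted as CD45-, CD31- and TER119- from collagenase-digested callus. No uninjured or treated group was part of the expression data, and how many animals went into a library is not given in the sources used here. With 1 library per day there is no replicate error, so no test was run, and all intervals (95%, exact) cover counting error only.

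The callus builds bone along a pair of routes. In direct ossification, progenitors of the periosteum become osteoblasts, which lay down type I collagen and mineral. In endochondral ossification they first become chondrocytes, which make type II collagen and aggrecan, enlarge into hypertrophic chondrocytes with type X collagen, and are replaced by bone, and some chondrocytes themselves take on osteoblast genes. *R3hdml* encodes a secreted protein of the CAP superfamily and *Prss46* a serine protease of the trypsin fold. *Gm41724* is an antisense long noncoding RNA, *Folr2* the folate receptor beta best known from macrophages, *Fgf1* the acidic fibroblast growth factor, and *Tnfrsf11b* osteoprotegerin, the soluble decoy receptor that holds back osteoclast formation by binding RANKL.

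The day 7 library went against its sort, since 6570 of its 7017 cells within the limits held *Ptprc*, the gene of CD45, against 6 of 6593 at day 10 and 173 of 9853 at day 14. Its 36 Prss46/R3hdml cells are fewer than 50, so values of day 7 are given as a description and the comparisons rest on day 10 and day 14. Summed UMIs of the cells without *Ptprc* were 4865862, 113557963 and 152463431 at day 7, 10 and 14. The libraries shared 29 to 42 barcodes per pair, and 0 barcodes were Prss46/R3hdml cells in both libraries of a pair.

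To place the cells, they were set beside osteoblasts, taken as cells with at least 3 UMIs of *Ifitm5*, and beside chondrocytes, taken as cells with at least 10 UMIs of *Cnmd* (chondromodulin) per 10000. Both classes were counted without Prss46/R3hdml cells and held 176 and 477 *Ifitm5* cells and 3104 and 2088 *Cnmd* cells at day 10 and day 14. Most Prss46/R3hdml cells fell in neither class, with 303 of 444 (68.2%) at day 10 and 387 of 540 (71.7%) at day 14. A further 30 and 39 were also *Ifitm5* cells, and 111 and 116 were also *Cnmd* cells, of which 2 at day 14 met both definitions. For context, levels are also given in cells with at least 3 UMIs of *Ihh* (prehypertrophic and hypertrophic chondrocytes make Indian hedgehog), in cells with at least 10 UMIs per 10000 of *Mmp13* (collagenase 3), and in cells with at least 10 per 10000 of *Rgs5*, a pericyte gene. Median depth was 21910.5 and 20040.0 UMIs per Prss46/R3hdml cell at day 10 and day 14, beside 19306 and 16218 in *Ifitm5* cells and 18852 and 20286 in *Cnmd* cells.

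The 6 genes chose the cells, so their levels there are a description. *R3hdml* reached 85.5, 291 and 427 CPM (UMIs of the gene per 1000000 UMIs summed over the cells) at day 7, 10 and 14, beside 16.8 and 17.0 CPM in *Ifitm5* cells and 30.8 and 46.5 CPM in *Cnmd* cells at day 10 and 14. *Prss46* was at 89.0, 73.0 and 57.3 CPM and stayed at 3.41 CPM or below in both classes at day 10 and 14. *Fgf1* was the lowest of the 6, at 28.5, 28.3 and 27.8 CPM. The other classes thus differed in which of the 6 they also carried. *Folr2* (68.9, 93.1 and 97.7 CPM) and *Gm41724* (297, 219 and 158 CPM) leaned to the osteoblast side, with *Folr2* at 23.3 and 36.0 CPM and *Gm41724* at 119 and 93.4 CPM in *Ifitm5* cells, but 1.67 and 4.38 CPM and 6.66 and 7.39 CPM in *Cnmd* cells. *R3hdml* leaned the other way, with 57.4 and 69.9 CPM in *Ihh* cells. *Tnfrsf11b* (644, 181 and 144 CPM) was spread over all of them, at 22.4 to 68.9 CPM in the *Ifitm5*, *Cnmd*, *Ihh* and *Mmp13* cells of both days. *Gm41724* overlaps the start of *Lox* on the opposite strand, and whether the counting used strand is not given in the sources used here, so its reads are uncertain. *Lox*, the lysyl oxidase that crosslinks collagen, was itself at 925 and 596 CPM in Prss46/R3hdml cells, 520.2 and 558 CPM in *Ifitm5* cells and 174 and 166 CPM in *Cnmd* cells.

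At full depth *Tnfrsf11b* was found in 79.5% and 80.4% of the Prss46/R3hdml cells at day 10 and 14, *Gm41724* in 72.7% and 68.7%, *Folr2* in 61.0% and 61.1%, *R3hdml* in 59.0% and 65.9%, *Prss46* in 51.1% and 40.6% and *Fgf1* in 32.0% and 31.7%. Whether the 6 genes mark the same cells was read by leaving each gene out in turn. Every cell was thinned to 5000 UMIs, cells below that depth were left out (4 and 3 of the Prss46/R3hdml cells), and cells were grouped by how many of the other 5 genes they held. *Prss46* was found in 93 of 4422 cells (2.10%) with none of the other 5 genes at day 10 and in 27 of 79 (34.2%; 23.9 to 45.7) with 3 or more of them. At day 14 the shares were 1.36% and 26.0% (17.9 to 35.5). *Folr2* went from 1.68% to 39.2% at day 10 and from 3.42% to 35.4% at day 14. *Fgf1* went from 1.01% to 15.2% and from 0.992% to 15.8%. *Tnfrsf11b*, the most widely found of the 6, went from 14.9% to 49.2% and from 10.6% to 35.3%. For each of the 6 genes the share was larger at every step from 0 to 3 or more of the others on both days, and the intervals of the lowest and the highest group did not overlap, while those of neighbouring groups did for some genes. The 6 genes were picked with these data known, so this is no independent support for them.

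**Figure D1:**
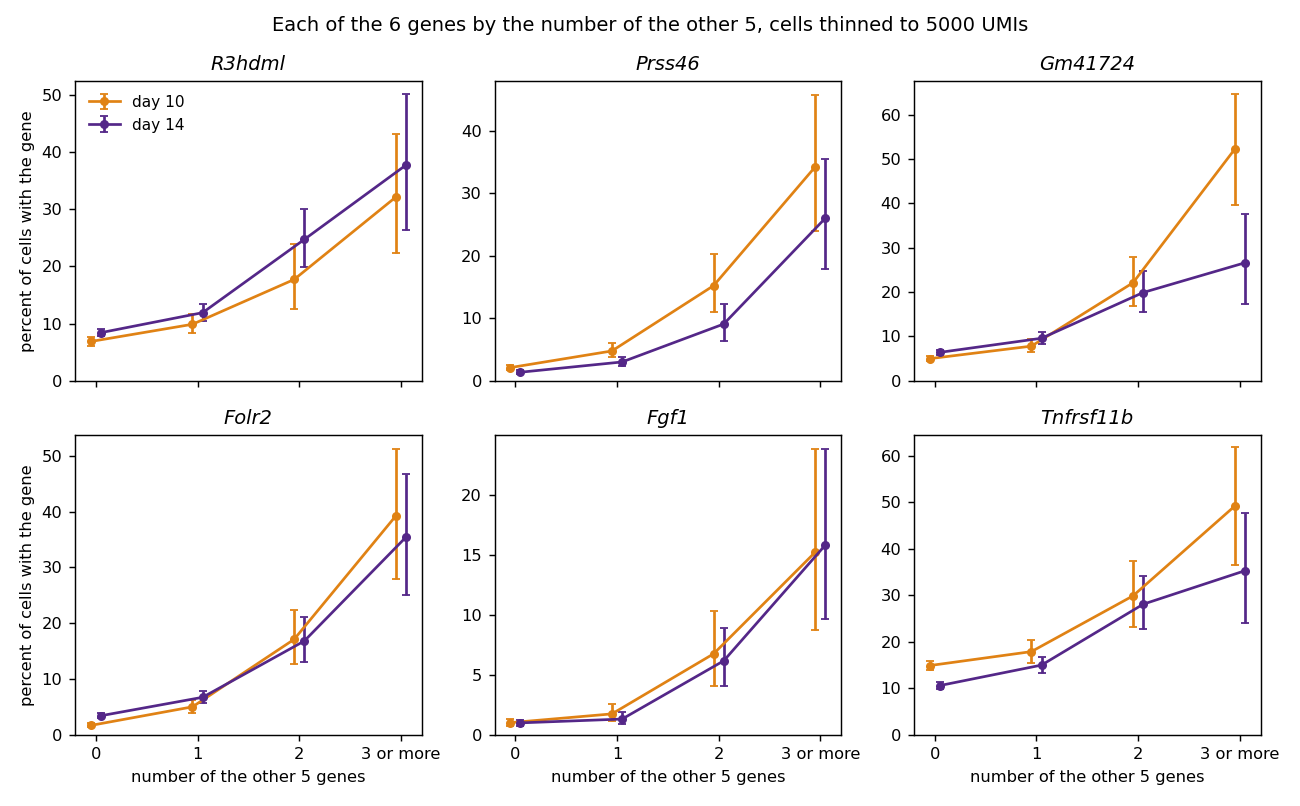
Share of cells with each of the 6 genes (vertical axis, percent) by how many of the other 5 genes the cell held (horizontal axis), after thinning every cell to 5000 UMIs, for the day 10 (orange) and day 14 (purple) libraries. Bars are exact 95% binomial intervals; *Prss46* climbs from 2.10% to 34.2% at day 10 and from 1.36% to 26.0% at day 14.

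Promoter windows from RefSeq, 250 bases before to 50 bases after the start on GRCm38.p6, were found for *R3hdml*, *Prss46* and *Folr2* of the 6 genes, and for *Chst1*, which was named with them as a marker of these cells but was not used to choose them. They are shown because these genes were found in the same cells. Each is written 5′ to 3′ on the strand of its gene, with matches to TGTGGT (RUNX), TGANTCA (AP-1), ACAATG (SOX) or TATAAA on either strand in capitals. *R3hdml* is at chr2:163492068-163492367 on the plus strand, *Prss46* at chr9:110844256-110844555 on the plus strand, *Folr2* at chr7:101857141-101857440 on the minus strand and *Chst1* at chr2:92600867-92601166 on the plus strand.
R3hdml: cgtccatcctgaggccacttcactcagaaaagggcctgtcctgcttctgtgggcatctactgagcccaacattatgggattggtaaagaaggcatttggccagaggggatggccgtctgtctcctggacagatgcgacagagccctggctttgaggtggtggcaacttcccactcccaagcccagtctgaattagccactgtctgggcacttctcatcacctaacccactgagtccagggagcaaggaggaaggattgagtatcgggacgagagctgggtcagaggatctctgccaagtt
Prss46: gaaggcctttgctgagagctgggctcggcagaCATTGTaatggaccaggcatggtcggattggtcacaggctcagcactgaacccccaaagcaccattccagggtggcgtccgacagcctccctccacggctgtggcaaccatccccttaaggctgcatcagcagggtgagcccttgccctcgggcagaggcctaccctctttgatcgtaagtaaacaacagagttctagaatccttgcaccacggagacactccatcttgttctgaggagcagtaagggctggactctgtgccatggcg
Folr2: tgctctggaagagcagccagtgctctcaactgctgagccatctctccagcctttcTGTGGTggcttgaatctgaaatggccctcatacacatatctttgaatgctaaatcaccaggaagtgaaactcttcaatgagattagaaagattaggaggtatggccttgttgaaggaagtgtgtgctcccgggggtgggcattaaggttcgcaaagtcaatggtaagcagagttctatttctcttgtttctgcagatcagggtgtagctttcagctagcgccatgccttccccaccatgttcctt
Chst1: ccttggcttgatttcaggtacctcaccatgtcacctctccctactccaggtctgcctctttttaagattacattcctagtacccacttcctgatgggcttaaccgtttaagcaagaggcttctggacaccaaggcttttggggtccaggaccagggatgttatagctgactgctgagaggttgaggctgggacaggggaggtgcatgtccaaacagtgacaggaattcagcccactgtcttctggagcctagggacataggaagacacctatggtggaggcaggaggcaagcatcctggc
*Prss46* held 1 SOX match, *Folr2* 1 RUNX match, and the windows of *R3hdml* and *Chst1* held none of the 4 words. Among 32851 promoter windows of the same length, 16.8% held the RUNX word, 12.6% the SOX word, 7.81% the AP-1 word and 13.6% the TATA word. These letters are a description of 1 window per gene, and *Folr2* has a further start in the table that is not shown.

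*Chst1*, the keratan sulfate galactose sulfotransferase, was high in these cells without having chosen them, but it had been named as a marker of them. It stood at 198 CPM at day 7, 135 CPM (128 to 143) at day 10 and 138 CPM (131 to 145) at day 14. *Ifitm5* cells had 37.6 and 31.1 CPM and *Cnmd* cells 12.9 and 21.2 CPM at day 10 and 14, log2 ratios of 1.84 and 2.15 and of 3.39 and 2.70. The intervals of the levels did not overlap. *Ihh* cells (47.0 and 54.4 CPM) and *Mmp13* cells (61.4 and 52.0 CPM) lay between. Thinned to 5000 UMIs, 39.1% and 36.5% of Prss46/R3hdml cells held *Chst1* (59.7% and 59.3% at full depth), beside 4.17% and 8.47% of *Rgs5* cells (11.8% and 18.2% at full depth). *Rgs5* cells had 12.9 and 22.7 CPM of *Chst1*, less than *Ifitm5*, *Ihh* and *Mmp13* cells. These shares thus do not show the contrast to the skeletal classes.

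Over all genes with a mean of at least 10 CPM, 450 of 7132 (6.31%) were at least 2-fold higher in Prss46/R3hdml cells than in *Ifitm5* cells at day 10 and 477 of 7065 (6.75%) at day 14, and 3.20% and 3.50% were at least 2-fold lower. Against *Cnmd* cells 3.88% and 3.08% were higher and 2.31% and 1.74% lower. On both days 324 genes (4.74%) were higher and 2.48% lower than in *Ifitm5* cells, and 171 (2.50%) were higher and 1.23% lower than in *Cnmd* cells. All 4 ratios were at least 2-fold higher for 58 genes (0.883% of 6568) and at least 2-fold lower for 2 (0.0305%). The 6 genes of the rule are left out of these counts. A gene could pass the mean of 10 CPM through its level in 1 of the classes alone. *AW112010* at day 10, for example, was at 20.4 CPM in Prss46/R3hdml cells and 0.931 CPM (3 UMIs) in *Ifitm5* cells. The counts are thus a description. More genes were thus past 2-fold against *Ifitm5* cells than against *Cnmd* cells, and the *Ifitm5* cells were also the smaller class, with 3221681 and 7771596 summed UMIs beside 58562238 and 41533323.

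The 20 genes with the largest smallest ratio included *Sod3*, *AW112010*, *Ltbp2*, *F13a1*, *Spon2*, *Ptges*, *Tspan2*, *Tnfsf11*, *Pank1*, *Col5a3*, *Ffar4*, *F5*, *Ank*, *Chst1*, *Axl*, *Col10a1*, *Cav1*, *Crabp2* and *Vamp5*. For 10 of these 20 the level was also the highest among all 6 classes on both days, among them *Ltbp2*, *F13a1*, *Spon2*, *Tspan2*, *F5*, *Ank*, *Chst1*, *Crabp2* and *Vamp5*. *F13a1*, the A subunit of coagulation factor XIII, a transglutaminase that crosslinks fibrin, was the most abundant of these at 273, 602 and 663 CPM at day 7, 10 and 14, with *Ihh* cells close behind at 526 and 478 CPM at day 10 and 14 and *Ifitm5* cells at 46.6 and 18.9 CPM. *F5*, coagulation factor V, had a like pattern, at 99.4 and 123 CPM beside 92.6 and 116 CPM in *Ihh* cells. A wider gap was found for *Tspan2*, a tetraspanin, at 126, 142 and 132 CPM on the 3 days, with the next class at 30.6 CPM at day 10 (*Mmp13* cells) and 27.9 CPM at day 14 (*Cnmd* cells). *Spon2*, a secreted matrix protein, was at 85.4 and 57.1 CPM at day 10 and 14, with *Ihh* cells next at 33.5 and 29.7 CPM. None of the 6 classes was made of fibroblastic progenitors, so a highest level among the classes does not cover such cells. For *Ltbp2* at day 14, cells with none of the 6 rule genes had 51.6 CPM beside 62.5 CPM in Prss46/R3hdml cells.

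The other genes of that group were shared with cells outside both comparison classes. *Col10a1*, the type X collagen of hypertrophic cartilage, was at 3989 and 6666 CPM at day 10 and 14 in Prss46/R3hdml cells but at 15417 and 18661 CPM in *Ihh* cells. *Pank1*, a pantothenate kinase, and *Ffar4*, a fatty acid receptor, were likewise highest in *Ihh* cells. *Col5a3*, *Axl* and *Cav1* were highest in *Rgs5* cells, with *Col5a3* at 1008 and 714 CPM there and 53.8 and 33.0 CPM in Prss46/R3hdml cells. *Sod3*, the extracellular superoxide dismutase, was at 71.8 and 92.4 CPM, beside 111 and 89.2 CPM in *Mmp13* cells and 136 and 76.3 CPM in *Rgs5* cells. The summed level of 7 pericyte markers in the Prss46/R3hdml cells was nonetheless only 38.9 and 38.2 CPM, against 11234 and 12024 CPM in *Rgs5* cells.

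Few genes were low against both classes. *Prss35*, a protease-like relative of *Prss46*, was at 8.66 and 12.3 CPM, beside 66.7 and 48.6 CPM in *Ifitm5* cells and 26.1 and 33.8 CPM in *Cnmd* cells at day 10 and 14. *Cpxm1*, a carboxypeptidase-like secreted protein, was at 30.2 and 32.3 CPM beside 63.0 to 78.1 CPM. *Lgr4*, the R-spondin receptor that also binds RANKL, was at 26.9 and 26.3 CPM beside 42.7 to 57.2 CPM, which is short of 2-fold in 3 of its 4 ratios. *Sort1*, *Phgdh*, *Zfp503*, *Igsf3*, *Slc7a2*, *Reck* and *Smpdl3b* followed, and each of these was short of 2-fold in at least 1 of its 4 ratios.

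**Figure D2:**
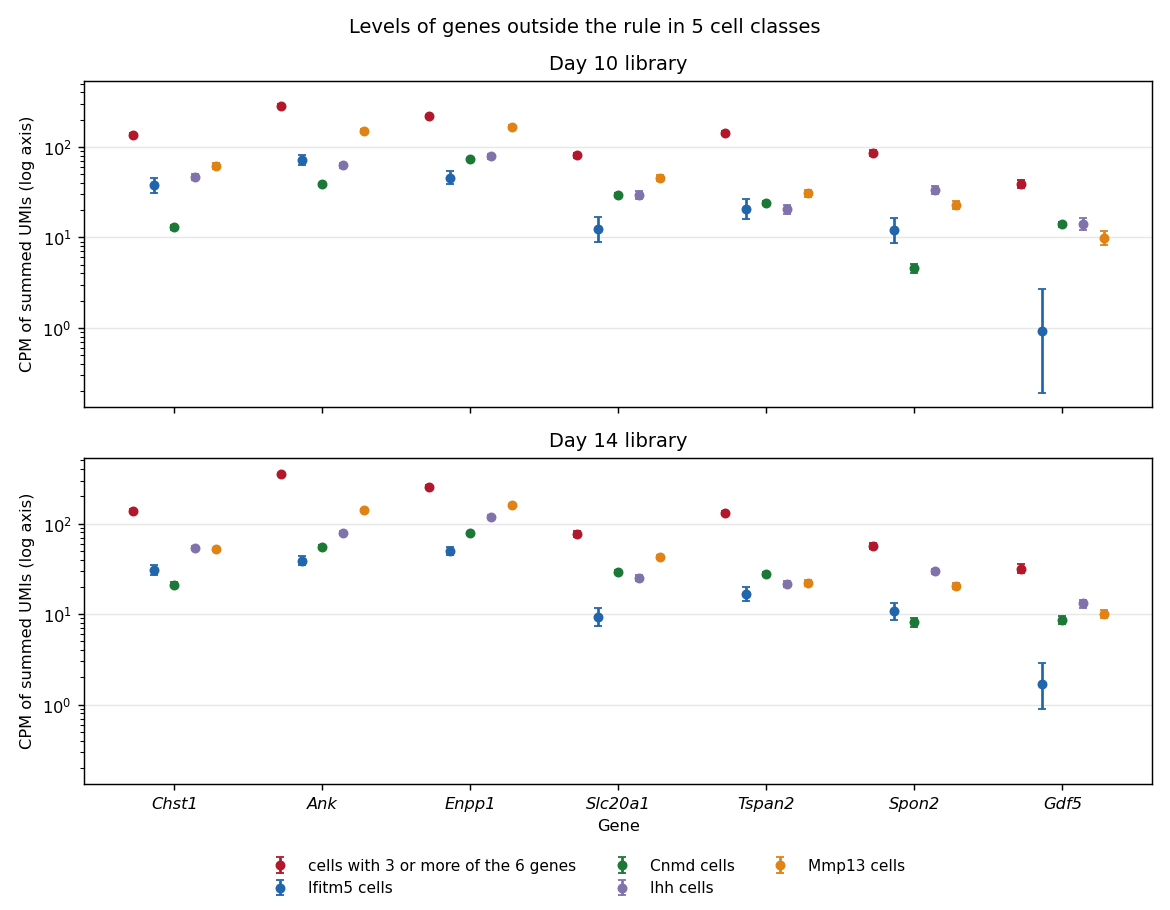
CPM of summed UMIs (vertical axis, logarithmic) of 7 genes that were not used to choose the cells, in Prss46/R3hdml cells (red) and 4 other classes of cells of the day 10 (top) and day 14 (bottom) libraries, with exact 95% Poisson intervals. The red points are the highest for each gene among the classes drawn on both days, and *Rgs5* cells are not drawn. *Chst1*, *Ank*, *Tspan2* and *Spon2* were named for exceeding the *Ifitm5* and *Cnmd* cells. *Enpp1*, *Slc20a1* and *Gdf5* are from lists chosen with earlier results of these data known. Genes such as *Tnfsf11* and *Bmp2*, higher in another class drawn, are not shown. For all 7 genes this is thus a description and no independent support. For *Ank* the red points stand at 284 and 355 CPM, with *Mmp13* cells next at 150.1 and 143 CPM.

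Genes of both skeletal lineages were present at once. *Col2a1*, the type II collagen of cartilage, was at 21464, 29020.4 and 24993 CPM at day 7, 10 and 14, between the *Ifitm5* cells (9955 and 6894 CPM at day 10 and 14) and the *Cnmd* cells (43511 and 36139 CPM). *Col1a1*, the type I collagen of bone, was at 26232, 17823 and 11313 CPM, again between the *Ifitm5* cells (42312 and 37501 CPM) and the *Cnmd* cells (7557 and 5987 CPM). *Ibsp*, bone sialoprotein, lay nearer to the osteoblasts at day 10 than at day 14, at 55853, 44374 and 30535 CPM beside 54572 and 52592 CPM in *Ifitm5* cells and 6842 and 8691 CPM in *Cnmd* cells. *Sox9*, the master factor of cartilage, was at the chondrocyte level, with 691 and 455 CPM beside 691 and 463 CPM in *Cnmd* cells and log2 ratios of 0.00 (-0.04 to 0.04) and -0.03 (-0.07 to 0.02). The pooled cells thus had the *Sox9* level of *Cnmd* cells together with far more *Ibsp* than these. *Rgs5* cells, as a type that should lack both, had 1167 and 2143 CPM of *Col2a1* and 250.1 and 2049 CPM of *Ibsp*.

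The chondrocyte list placed the cells well above osteoblasts and below chondrocytes. At least 2-fold higher than in *Ifitm5* cells were 14 of 19 genes at day 10 and 13 of 19 at day 14, with median log2 ratios of 1.24 and 1.28 beside 0.09 and 0.05 over all genes, of which 6.31% and 6.75% were higher. At least 2-fold lower than in *Cnmd* cells were 8 of 18 and 9 of 18, with medians of -0.85 and -0.94 beside 0.03 and 0.01, and 2.31% and 1.74% of all genes were lower. The gap was widest for cartilage genes such as *Matn1* (39.5 and 23.9 CPM, beside 259 and 78.3 CPM in *Cnmd* cells), *Ucma* (266 and 338 CPM, beside 1411 and 1332 CPM) and *Epyc* (21.3 and 20.4 CPM, beside 186 and 128 CPM). *Acan* and *Col2a1* were within 2-fold of *Cnmd* cells. Without the Prss46/R3hdml cells that were also *Ifitm5* or *Cnmd* cells, the mean of the 2 medians against *Ifitm5* cells was 0.56 in place of 1.26, a choice made after the data were seen.

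Osteoblast genes lay mostly between those of the 2 classes. Against *Cnmd* cells 5 of 14 genes were at least 2-fold higher at day 10 and 5 of 15 at day 14 and 1 was lower on each day (median log2 ratios of 0.81 and 0.66; over all genes 3.88% and 3.08% higher), while against *Ifitm5* cells 6 of 16 and 7 of 16 were lower (medians of -0.65 and -0.84; over all genes 3.20% and 3.50%). Mature osteoblasts make osteocalcin from *Bglap*, which reached 18.4 and 138 CPM in Prss46/R3hdml cells, far under the 6590.3 and 4596 CPM of *Ifitm5* cells, with log2 ratios of -8.49 and -5.06. *Cnmd* cells had 19.8 and 43.4 CPM of *Bglap*. Most *Bglap* UMIs of the Prss46/R3hdml cells at day 14 were in the 2 cells that met both class definitions. *Dlx3*, a transcription factor of osteoblast maturation, was low as well, at 3.38 and 2.27 CPM beside 25.5 and 18.4 CPM in *Ifitm5* cells. The lineage factors *Runx2* (126 and 107 CPM, beside 187 and 176 CPM) and *Sp7* (118 and 79.9 CPM, beside 196 and 149.5 CPM) were within 2-fold of the osteoblasts. Without the cells in either class, the mean of the 2 medians against *Cnmd* cells was 0.49 in place of 0.74.

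Genes that set phosphate and pyrophosphate outside the cell were high together. Pyrophosphate blocks crystal growth, and *Ank* exports it or its precursor ATP, *Enpp1* makes it from ATP, and *Slc20a1* (PiT1) takes up phosphate. *Ank* was at 497, 284 and 355 CPM at day 7, 10 and 14, beside 71.7 and 38.7 CPM in *Ifitm5* cells and 38.5 and 55.8 CPM in *Cnmd* cells at day 10 and 14. *Enpp1* was at 210.2, 218 and 256 CPM beside 45.6 and 49.5 CPM and 73.4 and 78.3 CPM. *Slc20a1* was at 91.4, 80.7 and 77.1 CPM beside 12.4 and 9.39 CPM and 29.7 and 29.3 CPM. All 3 were higher than in every one of the other classes on both days. *Spp1* (osteopontin, a mineral-binding matrix protein) followed the same side, at 12989 and 29515 CPM beside 1601 and 4159 CPM in *Cnmd* cells, but *Mmp13* cells had 18727 CPM at day 10. *Phospho1*, which releases phosphate inside matrix vesicles, was at 3.38 and 2.45 CPM beside 7.76 and 11.8 CPM in *Ifitm5* cells, and *Smpd3* was at 323 and 278 CPM beside 602 and 638 CPM in *Ifitm5* cells. Of the mineralization list, 8 of 11 and 7 of 11 genes were at least 2-fold higher than in *Cnmd* cells (over all genes 3.88% and 3.08%), and 1 was lower at day 10. Against *Ifitm5* cells 4 of 11 and 5 of 12 were higher (6.31% and 6.75%) and 3 of 11 and 4 of 12 lower (3.20% and 3.50%). *Dmp1* and *Phex*, genes of late osteoblasts and osteocytes, were among those lower than in *Ifitm5* cells at day 10, with *Dmp1* at 76.8 CPM beside 388 CPM, yet *Dmp1* was at 1.96 CPM in *Cnmd* cells.

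**Figure D3:**
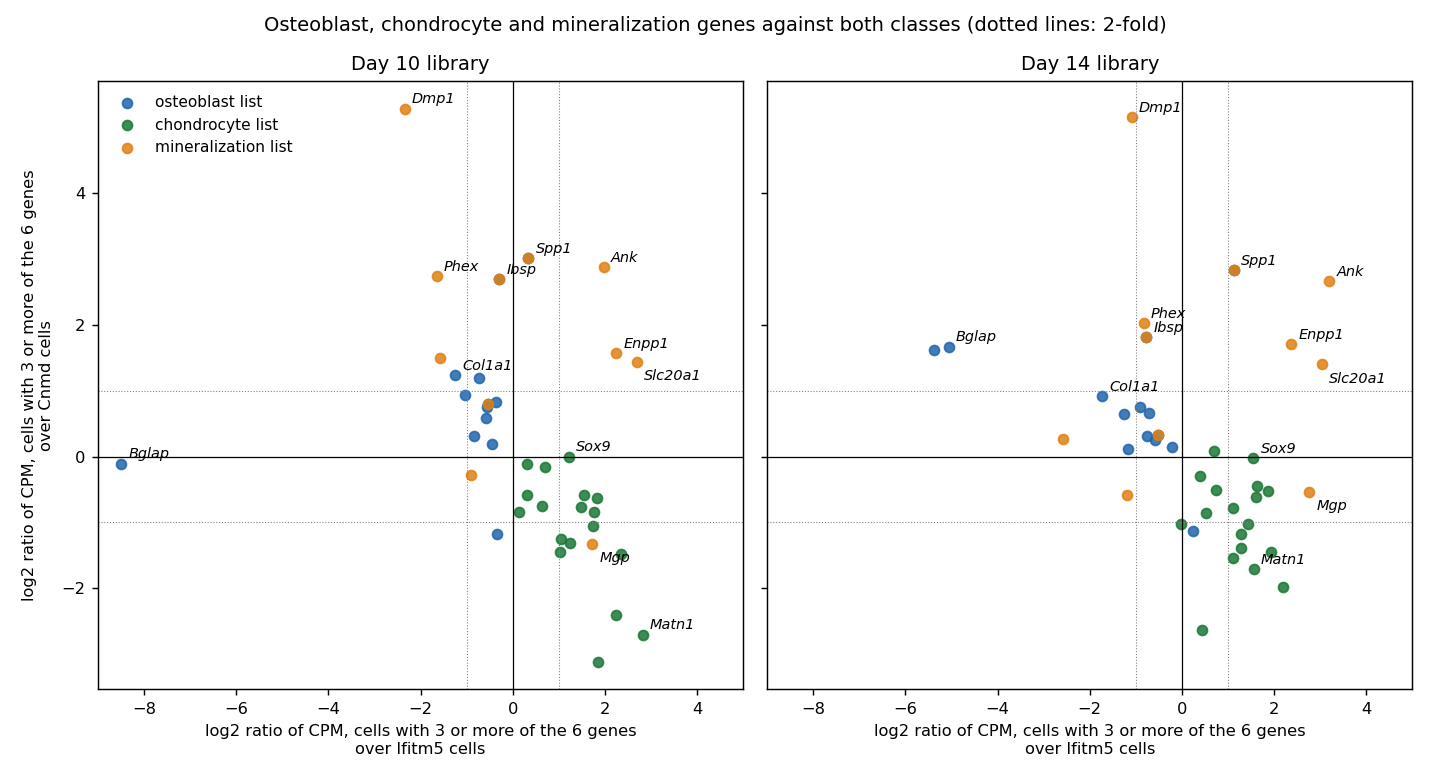
Log2 ratio of CPM in Prss46/R3hdml cells to that in *Ifitm5* cells (horizontal axis) and in *Cnmd* cells (vertical axis) for genes of the osteoblast (blue), chondrocyte (green) and mineralization (orange) lists that passed 10 CPM in both comparisons, at day 10 (left) and day 14 (right). By their medians, chondrocyte genes lie to the lower right and osteoblast genes to the upper left, but not every gene does. Of the osteoblast list, 1 gene was at least 2-fold lower than in *Cnmd* cells on each day. *Ank*, *Enpp1* and *Slc20a1* lie at the upper right past 2-fold (dotted lines), and *Bglap* lies far left at -8.49 and -5.06.

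A pooled mixture need not be a mixture in each cell. *Col2a1*, *Col1a1* and *Ibsp* were each at 10 or more UMIs per 10000 in 266 of 444 Prss46/R3hdml cells (59.9%; 55.2 to 64.5) at day 10 and 252 of 540 (46.7%; 42.4 to 51.0) at day 14. The shares were 60.2% and 40.9% of *Ifitm5* cells, 28.5% and 32.1% of *Cnmd* cells, and 1.32% and 3.74% of *Rgs5* cells, which were shallower (median 12522 and 9130.5 UMIs). *Ihh* cells had 54.5% and 32.9%. The joint presence was thus not particular to the Prss46/R3hdml cells, and at day 10 its share lay within the interval of the *Ifitm5* cells (52.6 to 67.5). The balance lay between both classes, as *Col2a1* exceeded *Col1a1* in 55.0% and 64.8% of Prss46/R3hdml cells, in 11.9% and 11.7% of *Ifitm5* cells and in 91.2% and 86.5% of *Cnmd* cells. All other cells as 1 group had 56.5% and 39.1%, and *Mmp13* cells 38.6% and 41.8%, so that a balance in this range was not particular to the Prss46/R3hdml cells. The log2 ratio of *Col2a1* to *Col1a1* within a cell ran from -5.41 at the 10th percentile to 3.88 at the 90th at day 10 and from -5.29 to 5.47 at day 14. The label osteochondral thus holds for the pool, while single cells ranged from mainly type I to mainly type II collagen. Scrublet, a caller of cell doublets, marked 6 of 444 (1.35%) and 20 of 540 (3.70%) of the cells, beside 0.505% and 2.01% of all other cells. It marked 5 of the 111 cells that were also *Cnmd* cells at day 10 and 4 of the 39 that were also *Ifitm5* cells at day 14, and the part of doublets in the levels was not tested. It marked none of 8178 cells tested at day 7, where it did not work.

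**Figure D4:**
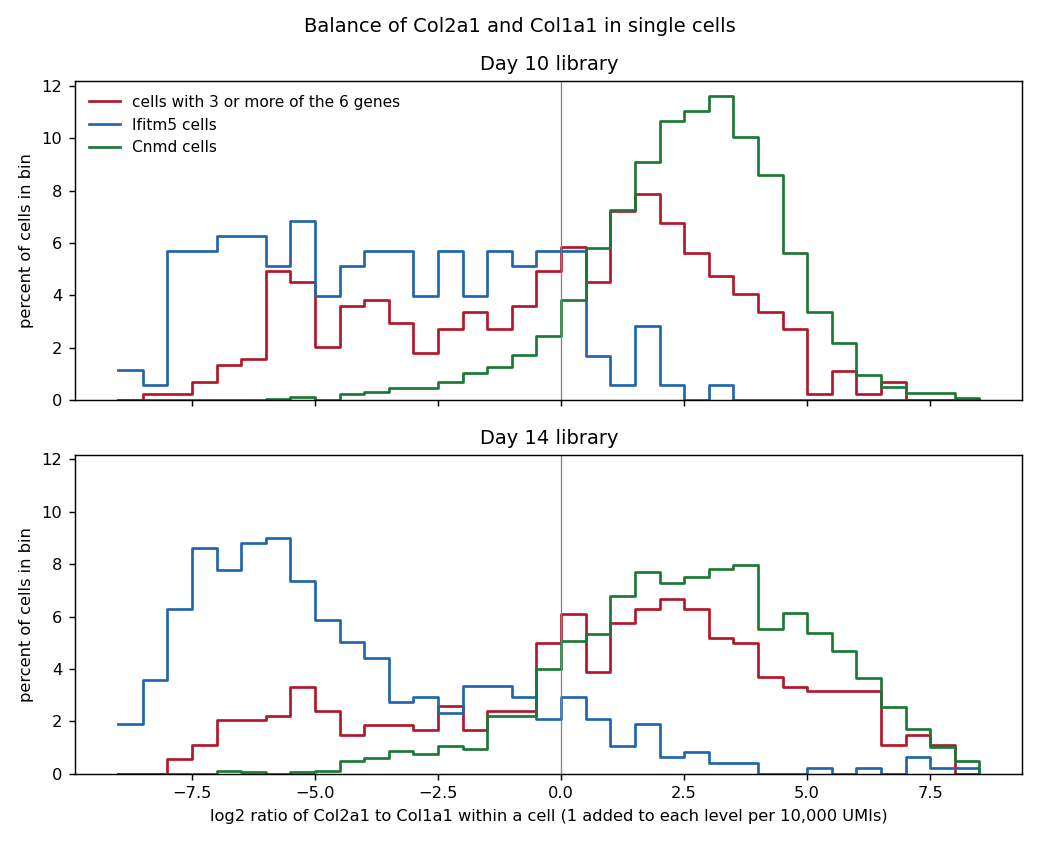
Distribution over cells (percent of the cells of a class per bin of 0.5) of the log2 ratio of *Col2a1* to *Col1a1* within a cell, for Prss46/R3hdml cells (red), *Ifitm5* cells (blue) and *Cnmd* cells (green) at day 10 (top) and day 14 (bottom). The red line spans the range of both other classes, with medians of 0.45 and 1.47 between -3.68 and -5.21 for *Ifitm5* cells and 2.70 and 2.76 for *Cnmd* cells.

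Levels differed within the set when cells were ordered by how many of the 6 genes they held. The order uses the genes of the rule, and *Chst1*, *Ank*, *F13a1*, *Tspan2* and *Spon2* were named for being high in these same cells. The rise of these and of the other genes given here is thus a description and no independent support. At day 10, 281 cells held 3 of the genes, 97 held 4, 49 held 5 and 17 held 6, and at day 14 the numbers were 367, 101, 56 and 16. Just outside the threshold, 819 and 1175 cells held 2 genes. *Chst1* went from 34.4 CPM in cells with 2 genes to 80.0 CPM with 3, 187 CPM with 4 and 292 CPM with 5 or 6 at day 10, and from 55.2 to 93.2, 199.7 and 276 CPM at day 14. *Ank* went from 106 to 211, 333 and 519.6 CPM and from 140.3 to 277, 456 and 608 CPM. *F13a1*, *Tspan2*, *Spon2* and *Enpp1* rose at each of these steps too on both days, and *Chst3*, a chondroitin sulfotransferase, went from 1.54 to 22.7 CPM with 4 genes and 20.3 CPM with 5 or 6 at day 10, and from 2.93 to 45.7 CPM at day 14. Other genes of the higher group did not follow, as *Col10a1* was at 4382 and 8097 CPM with 4 genes and at 2371 and 5598 CPM with 5 or 6.

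*Ifitm5*, *Bglap* and *Cnmd* went the other way within the set. *Ifitm5* was at 127 and 154 CPM in cells with 3 of the 6 genes and at 8.40 and 10.9 CPM in cells with 5 or 6. *Bglap* went from 27.0 to 2.10 CPM at day 10 and from 196 to 12.3 CPM at day 14. Most *Bglap* UMIs of the day 14 cells with 3 genes came from the 2 cells that met both class definitions. *Mmp13* was at 1361, 1942 and 286 CPM with 3, 4 and 5 or 6 genes at day 10 and at 1481, 1035 and 407 CPM at day 14. *Cnmd* went from 860.3 to 344 CPM and from 829 to 377 CPM. *Acta2*, the smooth muscle actin of contractile progenitors, was at 437 and 418 CPM in cells with none of the 6 genes and at 25.9 and 8.19 CPM with 5 or 6. *Col2a1* and *Sox9* were higher in cells with 5 or 6 genes, with *Col2a1* at 27577 and 21926 CPM with 3 genes and 38687 and 32820.4 CPM with 5 or 6, and *Sox9* at 661 and 413 CPM and 823 and 595 CPM. *Ibsp* was at 40143 and 27723 CPM with 3 genes and 48783 and 48551 CPM with 5 or 6. The share of cells with *Col2a1*, *Col1a1* and *Ibsp* all at 10 or more per 10000 was 56.2% and 39.5% with 3 genes and 69.7% and 75.0% with 5 or 6. As a description, cells with 5 or 6 of the genes more often had both collagens and bone sialoprotein than cells with 3. They also had less *Bglap*, *Ifitm5* and *Mmp13*.

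**Figure D5:**
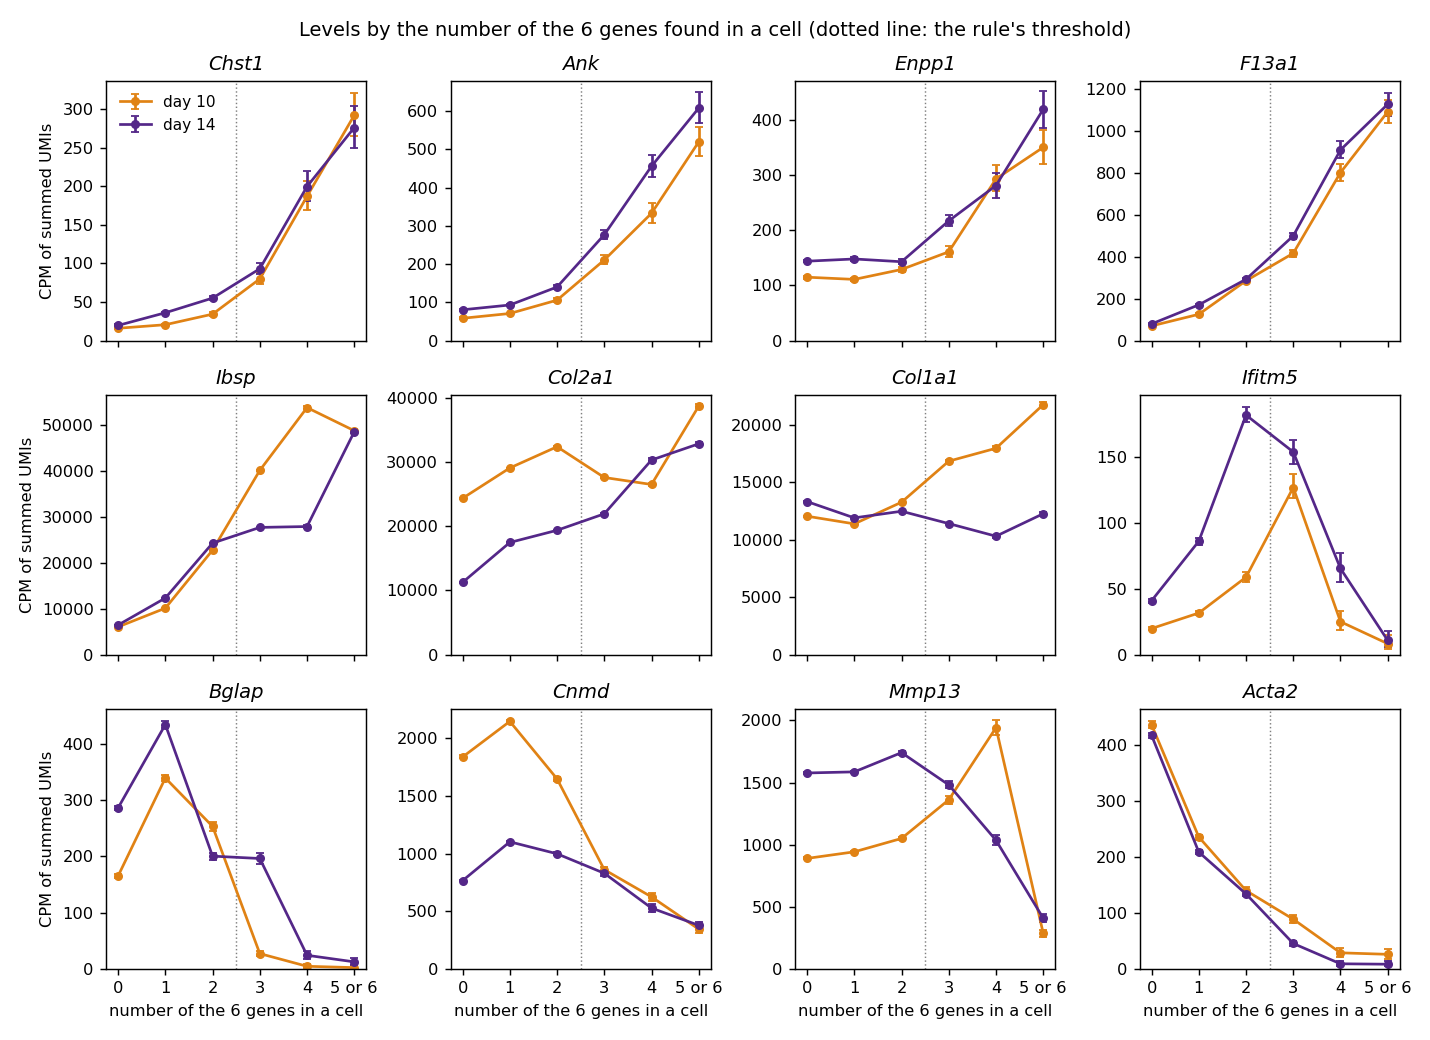
CPM of summed UMIs (vertical axes, each with its own scale from 0) of 12 genes outside the rule in cells with 0 to 5 or 6 of the 6 genes (horizontal axis), at day 10 (orange) and day 14 (purple), with exact 95% Poisson intervals; cells right of the dotted line are the Prss46/R3hdml cells. *Chst1*, *Ank*, *Enpp1* and *F13a1* climb to 292, 519.6, 350.2 and 1092 CPM at day 10, while *Ifitm5*, *Bglap*, *Cnmd* and *Acta2* end near their lowest.

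The cells that met an osteoblast or chondrocyte definition as well differed from the rest of the set. At day 14 the 2 cells of both definitions were left out here, which left 37 and 114 overlapping cells. Cells that were also *Ifitm5* cells (30 and 37) had *Ank* at 64.2 and 86.1 CPM, *Enpp1* at 77.0 and 40.6 CPM and *F13a1* at 69.9 and 65.2 CPM at day 10 and 14. Cells that were also *Cnmd* cells (111 and 114) had *Ank* at 87.8 and 178 CPM and *Enpp1* at 81.5 and 118 CPM. The cells of neither class had more of both genes, with *Ank* at 397 and 452 CPM and *Enpp1* at 295 and 331 CPM. *F13a1* had another pattern, at 649.5 and 462 CPM in the cells that were also *Cnmd* cells and 642 and 805 CPM in the cells of neither class. *Mmp13* was at 1949 and 1765 CPM in the cells of neither class, and at 171 to 274 CPM in the overlapping cells.

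Genes related to the 6 were read from lists. The osteoclast-regulating list held *Tnfsf11*, which encodes RANKL, the ligand that *Tnfrsf11b* neutralizes, and it was present together with it, at 76.0, 44.4 and 31.1 CPM at day 7, 10 and 14, beside 9.93 and 5.66 CPM in *Ifitm5* cells, 2.99 and 3.23 CPM in *Cnmd* cells and 93.0 and 64.2 CPM in *Mmp13* cells. *Tnfsf11* was the only gene of 4 tested at least 2-fold higher than in *Ifitm5* cells on both days (over all genes 4.74%). At day 10, 1 of the 4 was at least 2-fold lower (over all genes 3.20%). *Csf1*, the other essential osteoclast factor, was at 29.0 and 15.6 CPM, and *Mmp13* cells had 128 and 82.7 CPM. For *Folr2* the folate and one-carbon list was read. None of its 5 to 7 genes tested was at least 2-fold higher in any of the 4 comparisons. Over all genes 6.31% and 6.75% were higher than in *Ifitm5* cells and 3.88% and 3.08% than in *Cnmd* cells, so 0 of so few genes is near these shares. At least 2-fold lower was 1 gene against *Cnmd* cells on each day (over all genes 2.31% and 1.74%) and 1 against *Ifitm5* cells at day 14 (3.50%). The folate carrier *Slc19a1* was at 8.77 and 8.72 CPM beside 22.0 and 18.4 CPM in *Cnmd* cells.

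*Folr2* is a macrophage gene, so macrophage markers were read beside it. In the Prss46/R3hdml cells 9 of 14 macrophage genes were at 0 UMIs at day 10 and 7 of 14 at day 14, and the whole list summed to 9.40 and 12.9 CPM, beside 9.62 and 10.4 CPM in *Ifitm5* cells and 6.28 and 9.41 CPM in *Cnmd* cells. *C1qa*, *C1qb*, *C1qc*, *Adgre1*, *Ms4a7* and *Aif1* were at 0 on both days, and *Folr2* alone was at 93.1 and 97.7 CPM. Endothelial markers summed to 4.33 and 2.73 CPM. Neutrophil markers summed to 1795, 2.22 and 63.5 CPM at day 7, 10 and 14, and to 2139, 46.6 and 119 CPM in *Cnmd* cells. Both were highest at day 7 and lowest at day 10, but at day 10 the levels of the classes were far apart. Osteoclast markers summed to 197 and 166 CPM at day 10 and 14, beside 211 and 224 CPM in *Ifitm5* cells and 160.1 and 181 CPM in *Cnmd* cells. The sum thus lay between both classes at day 10 and below both at day 14. Erythroid markers summed to 280.2, 4.33 and 4.63 CPM on the 3 days.

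For the other genes, *Fgf1* was accompanied by its receptor *Fgfr1* at 299.6 and 278 CPM, beside 70.8 and 77.2 CPM in *Cnmd* cells but 261 and 209 CPM in *Ifitm5* cells, while *Fgfr3*, the receptor of proliferating chondrocytes, was at 112 and 77.9 CPM beside 201 and 172 CPM in *Cnmd* cells. Of the other FGF ligands on the list, *Fgf7* was the highest at 13.7 and 11.3 CPM. In the CAP superfamily, *Crispld1* was at 62.7 and 76.4 CPM beside 184 and 173 CPM in *Cnmd* cells, and *Pi15* and *Pi16* were below 1 CPM. *Prss50*, which lies with *Prss46* in a protease cluster on chromosome 9, was at 22.6 and 29.5 CPM, beside 9.62 and 7.72 CPM in *Ifitm5* cells and 14.3 and 10.8 CPM in *Cnmd* cells, and *Prss45* at 1.06 and 1.73 CPM. *Htra1*, a secreted serine protease, was at 578 and 509.7 CPM but higher in *Mmp13* cells (712 and 722 CPM). Of the 11 and 10 genes of keratan sulfate and sulfotransferases that passed 10 CPM, 2 and 3 were at least 2-fold higher than in *Ifitm5* cells (over all genes 6.31% and 6.75%) and 0 were lower. *Chst1* and *Fmod* (fibromodulin, a keratan sulfate proteoglycan, at 1345 and 1158 CPM beside 352 and 246 CPM) were higher on both days. *Chst11* and *Chst12*, which sulfate chondroitin, were at 99.8 and 74.9 CPM and at 84.4 and 84.1 CPM, within 2-fold of *Ifitm5* cells. Against *Cnmd* cells 2 of 12 and 1 of 11 genes of this list were at least 2-fold higher (over all genes 3.88% and 3.08%). Lower were 3 and 1 (2.31% and 1.74%). *Chst1* and *Prss46* were thus not joined by their whole families.

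Signals of the BMP family were uneven. *Gdf5*, a BMP-family ligand known from joint progenitors, was at 39.2 and 31.9 CPM at day 10 and 14, beside 0.931 and 1.67 CPM in *Ifitm5* cells and 13.9 and 8.57 CPM in *Cnmd* cells. *Bmp2* was at 113 and 115 CPM, beside 78.8 and 34.4 CPM and 38.7 and 23.0 CPM, with *Ihh* cells above at 167 and 180.3 CPM. *Bmp3* (3.80 and 11.5 CPM) and *Bmp4* (3.70 and 5.63 CPM), in contrast, were mainly found in *Ifitm5* cells (51.2 and 65.2 CPM of *Bmp3*). Over the BMP list 4 of 13 and 5 of 12 genes were at least 2-fold higher (over all genes 6.31% and 6.75%) and 4 and 3 lower (3.20% and 3.50%) than in *Ifitm5* cells. Among hypertrophic genes, 5 of 12 were at least 2-fold higher than in *Cnmd* cells on each day (over all genes 3.88% and 3.08%), and against *Ifitm5* cells 3 and 4 were higher (6.31% and 6.75%) and 1 and 2 lower (3.20% and 3.50%). *Ihh* itself was at 174 and 175 CPM beside 65.4 and 106 CPM in *Cnmd* cells, past 2-fold at day 10 and short of it at day 14. Of the 13 genes of the fibroblastic progenitor list tested, 4 and 1 were at least 2-fold higher than in *Ifitm5* cells (over all genes 6.31% and 6.75%). Lower were 1 and 1 (3.20% and 3.50%). Against *Cnmd* cells 5 and 0 were higher (3.88% and 3.08%) and 1 and 1 lower (2.31% and 1.74%). At day 14 the counts of higher genes were thus near the shares over all genes. *Postn*, a matrix protein of periosteal progenitors, was at 703, 1344 and 714 CPM at day 7, 10 and 14, beside 439 and 340.2 CPM in *Ifitm5* cells and 469 and 473 CPM in *Cnmd* cells at day 10 and 14, and *Rgs5* cells had 1810.1 and 891 CPM. Cells with none of the 6 genes had more *Postn*, at 1599 and 1595 CPM. The proliferation list summed to 136 and 109 CPM, beside 137 and 127 CPM in *Cnmd* cells.

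Wnt inhibitors and matrix proteases were mixed as well. *Wif1*, which binds Wnt ligands outside the cell, was at 86.4 and 141 CPM at day 10 and 14, beside 185 and 226 CPM in *Ifitm5* cells and 8.62 and 28.7 CPM in *Cnmd* cells. Of the Wnt list 4 of 11 and 3 of 10 genes were at least 2-fold higher than in *Cnmd* cells (over all genes 3.88% and 3.08%). Against *Ifitm5* cells 2 of 11 and 1 of 11 were higher (6.31% and 6.75%) and 3 and 2 were lower (3.20% and 3.50%). Of the matrix proteases and their inhibitors, 6 of 11 and 4 of 10 were higher than in *Cnmd* cells (over all genes 3.88% and 3.08%). Against *Ifitm5* cells 2 of 11 were higher and 2 lower on each day, beside the same shares over all genes as for the Wnt list. *Adamts1*, an aggrecan-cleaving protease, was at 57.9 and 30.1 CPM beside 29.8 and 13.9 CPM and 26.1 and 10.8 CPM. Immediate early genes, which respond to tissue digestion, were within 2-fold of both classes at day 10 in all 10 cases, and at day 14 for all but 1 against *Ifitm5* cells.

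Between day 10 and day 14 few genes were past 2-fold in the cells. At least 2-fold higher at day 14 were 34 of 7152 genes (0.475%) and 30 were lower (0.419%), with the 6 genes left out. These 64 genes became 100 when 4 of the 6 genes were needed, 693 after thinning to 5000 UMIs, 3635 with no filter on low levels and 17 at 50 CPM, so the number depends on the setting. In *Ifitm5* cells the shares were 0.521% and 1.20% and in *Cnmd* cells 0.402% and 0.661%. *Spp1* went from 12989 to 29515 CPM and *Bglap* from 18.4 to 138 CPM, a log2 ratio for *Bglap* of 2.91 (2.68 to 3.15). Most *Bglap* UMIs of day 14 were in the 2 cells that met both class definitions, of which Scrublet marked 1. Without these 2 cells, *Bglap* at day 14 was at 177 CPM in cells that were also *Ifitm5* cells. It was at 23.3 CPM in those that were also *Cnmd* cells and 29.8 CPM in those of neither class. At day 10 these levels were 21.4, 12.2 and 20.8 CPM. Over the same days *Rgs5* cells went from 427 to 2524 CPM of *Spp1* and from 7.94 to 94.6 CPM of *Bglap*, and the part of free RNA in these changes was not tested. *Cilp*, a cartilage matrix protein, went from 7.92 to 57.0 CPM and *Igf1* from 39.8 to 139 CPM. *Il11*, a cytokine of the interleukin 6 family, went from 154 to 46.1 CPM, *Mmp9* from 45.5 to 10.6 CPM and *Pappa*, a protease of IGF-binding proteins, from 63.3 to 24.9 CPM. Genes of this paragraph other than *Spp1*, *Bglap* and *Mmp9* were chosen after their values were seen. Day and library cannot be told apart.

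The 36 cells of day 7 shared some of the leading genes. *Chst1* (198 CPM), *Ank* (497 CPM), *Tspan2* (126 CPM) and *Spon2* (118 CPM) were above the *Ifitm5* and *Cnmd* cells of that day. *F13a1* was not, at 273 CPM beside 476 CPM in *Cnmd* cells and 964 CPM in *Ihh* cells, and *Col10a1* was at 234 CPM beside 698 CPM in *Cnmd* cells. *Tnfrsf11b* was at 644 CPM, beside 20.9 CPM in the 12 *Ifitm5* cells and 49.0 CPM in the 64 *Cnmd* cells of that day. *Il11* (303 CPM), *Egln3* (142 CPM) and *Pgf* (83.1 CPM) were chosen after their values were seen, and *Cnmd* cells of day 7 had 1.58 CPM of *Il11*. Median mitochondrial UMIs were 0.787% in these cells and 3.11% in *Cnmd* cells of day 7, and the part of this difference in the levels was not tested.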

How the data were processed

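UMI counts per gene and cell, whole numbers with no normalization, were deposited by the authors, who had made them from the reads of each library with Cell Ranger. The submitters' notes name Cell Ranger 3.0 and mm10, and the matrix header version 3.1.0, while the methods name another version, and whether strand was used is not given in the sources used here. Cells with 500 to 5000 genes, at most 10% mitochondrial and 5% hemoglobin UMIs and no *Ptprc* were kept. UMIs were summed per class and library and scaled to CPM, and only genes with a mean of at least 10 CPM were compared. A class at 0 was set at 3 UMIs. Levels have exact Poisson intervals, ratios and shares exact binomial (Clopper-Pearson) intervals of 95%, for counting error only. Named genes were the 20 with the largest smallest and the 10 with the smallest largest of 4 ratios (2 classes, day 10 and 14), the genes of the lists, the 6 genes and the given markers. The members and lists were chosen with earlier results of these data known. The *Ihh*, *Mmp13* and *Rgs5* classes were added after seeing the data. Alternatives changed the number of genes required, the genes of the rule, the limits on cells, the thinning, the doublets, the weighting of cells, the classes and the filter on low levels. Steps used Python 3.11.15, scipy 1.17.1 and scanpy 1.11.5 (Scrublet), and the ratios were tested on simulated data. Positions are from GENCODE on GRCm38. Some genes that the rule names are not reported here.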

Additional observations from a re-analysis of the deposited data

Results flagged for a closer look

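Outside the cells described, the 6 genes also appeared together in cells with *Ptprc*, which the rule leaves out. At least 3 of the 6 were found in 14 of the 6570 cells with *Ptprc* at day 7, in 5 of 173 at day 14 and in 0 of 6 at day 10. More than 3 cells was the set limit for giving a count here, and how many to expect was not computed. Of the 14 cells at day 7, 12 held *Lyz2*, a myeloid gene found in 95.3% of all cells with *Ptprc* of that day. Further, 13 held *Ibsp* (20.9% of all), 14 held *Col2a1* (50.1% of all) and 0 held *C1qa* (2.57% of all). Over all cells with *Ptprc* at day 7, *Folr2* was at 0.318 CPM.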

How the results depend on the processing

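No paired analysis was possible because each day is 1 library. Prss46/R3hdml cells of day 10 and 14 numbered 984, and 2978 when 2 of the 6 genes were enough, 336 when 4 were needed, 258 after thinning to 5000 UMIs and 491 without *Tnfrsf11b* in the rule. Genes higher than in *Ifitm5* cells on both days numbered 324 (844 with no filter on low levels, 129 at 50 CPM), and genes higher than in *Cnmd* cells 171 (2906 and 51). The chondrocyte median against *Ifitm5* cells of 1.26 was 1.50 with 2 genes, 1.15 with 4, 1.57 after thinning, 1.10 with no upper limit on genes per cell, 1.12 without *Tnfrsf11b*, 1.40 without *Folr2*, 1.37 with cells weighted equally, 1.32 with Prss46/R3hdml cells left in the classes, 1.53 with stricter classes and 0.56 for the cells of neither class. The osteoblast median against *Cnmd* cells of 0.74 was 0.58 with 4 genes, 0.70 after thinning, 0.64 with no upper limit, 0.63 without *Tnfrsf11b*, 0.49 without *Folr2*, 0.95 with stricter classes and 0.49 for the cells of neither class. All these medians kept their sign, and the cause of the shifts was not tested. Genes past 2-fold between day 10 and day 14 numbered 64, 100 with 4 genes, 693 after thinning, 3635 with no filter and 17 at 50 CPM. Thinning left fewer UMIs per class. The share of cells with a left-out gene, a median of 34.8% over the 6 genes and both days, was 31.1% at 2000 UMIs. All 20 higher named genes kept their direction in 4 ratios under 15 alternatives, and 18 stayed past 2-fold in all of them. Of the 10 lower ones 9 kept their direction, and of the 2 past 2-fold in all 4 ratios 0 stayed so under every alternative.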
